A study of Mus musculus with 15 samples.

Results

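E1KD cells were compared with NMuMG cells, the line they were made from, over all genes that the arrays could name. The comparison took 6 of the series' 15 arrays, 3 of each line, and 18193 genes, each read from 1 probe set. NMuMG is a mouse mammary gland epithelial line that the labels call wild-type and non-tumorigenic. E1KD is NMuMG in which hnRNP E1, the protein encoded by Pcbp1, was silenced, and the labels call it tumorigenic and the line used for passage in mice. Neither line had been through a mouse, and both were kept in the same medium with 5% fetal bovine serum and 5% calf serum. The other 9 arrays are of M1P, L1P and L2P, lines recovered from mice after growth of these cells, and enter here through the estimate of spread. Each line is a single line, and no control vector line was analysed here, so hnRNP E1 silencing cannot be told apart from other differences between the lines. Whether the replicate arrays came from separate cultures is not given in the labels, so the p-values measure the spread between arrays, which may be technical.

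hnRNP E1 is a poly(C)-binding protein that holds certain messenger RNAs in an untranslated state. In NMuMG cells its known targets include the messages of Dab2, an endocytic adaptor, and Fam3c, a secreted factor also called ILEI, and TGF-beta signalling releases them by way of Akt2. Loss of this control is known for epithelial to mesenchymal transition, in which cells give up apical-basal polarity and junctions and take on matrix-rich, motile features. Arrays measure RNA and not translation, so a target released at the ribosome need not change here.

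All signals are on a log2 scale. Correlations lay between 0.988 and 0.995 for pairs of arrays within NMuMG or within E1KD and between 0.956 and 0.981 for pairs across them. In limma's test, 546 genes (3% of those tested) rose in E1KD and 1181 (6.49%) fell at an adjusted p under 0.05, 9.49% in all. The shares of gene lists called below stand beside this 9.49%, or beside 12.6% of the genes at 8 or more in both lines. At least 2-fold differences were seen in 332 rises (1.82%) and 516 falls (2.84%), and at least 8-fold in 44 rises and 34 falls. The median fold was 2.25 for rises and 1.9 for falls. The 3 E1KD arrays all lay above the 3 NMuMG arrays for 13.7% of genes and all below for 22.3%, and 1726 of the 1727 called genes were among these. The median difference of all genes was -0.069. The total of 1727 was 1138 without NMuMG array 1 and 999 without E1KD array 2, and 877 genes kept their call whichever of the 6 arrays was left out. It was 3439 with only these lines in the fit, where rises made up 43.9% of calls, and 3463 without the M1P arrays, of which arrays 1 and 2 stood apart with the lowest array weights, 0.161 and 0.00493 (their estimation stopped before it converged). The control probe sets for the ends of the Actb message differed by 0.82 to 0.98 (3' minus 5') in NMuMG and 0.77 to 0.93 in E1KD, and those of Gapdh by 0.35 to 0.41 and 0.32 to 0.39, so both overlapped. The spiked dap RNA read 9.84 to 10.49 in NMuMG and 9.27 to 9.69 in E1KD, without overlap, and the part of this in the results was not tested.

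**Figure D1:**
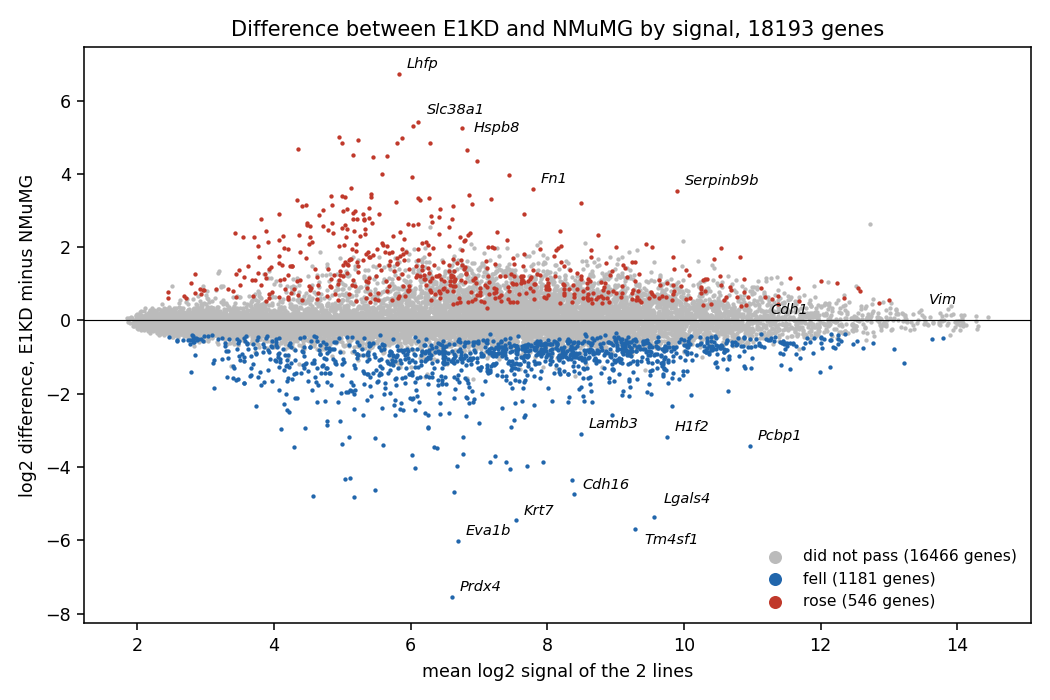
Log2 difference between E1KD and NMuMG (vertical axis) against the mean log2 signal of both lines (horizontal axis), 1 point per gene, n = 3 arrays per line, coloured by limma call at an adjusted p under 0.05. The 1181 falls outnumber the 546 rises, Prdx4 lies lowest and Lhfp highest, and Cdh1 and Vim lie near 0.

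Pcbp1 checks the labels. It read 12.76, 12.72 and 12.57 in the NMuMG arrays and 9.36, 8.99 and 9.39 in the E1KD arrays. The lines did not overlap, and the fall was 10.8-fold (log2 difference -3.44 ± 0.22 SE, adjusted p = 3.89e-07). What remained was still a well measured signal. The other poly(C)-binding genes did not pass: Pcbp2 differed by 0.23 ± 0.18, Pcbp3 by -0.57 ± 0.24, Pcbp4 by 0.22 ± 0.26, and Hnrnpk by 0.36 ± 0.25. With only these lines in the fit, Pcbp3 passed (adjusted p = 0.0405). Of 26 poly(C)-binding and other hnRNP genes measured, 21 were higher in E1KD, with a median difference of 0.34 against -0.069 for all genes. Among them only Hnrnph3, a splicing regulator, rose (0.69, adjusted p = 0.0326), a call that ended on leaving out any 1 of the 6 arrays (adjusted p of 0.066 to 0.133). Hnrnpu, a nuclear scaffold protein, with a difference of 0.70 and Hnrnpm, a splicing regulator, with 0.71 did not pass, but did with only these lines in the fit (0.00723 and 0.024), where 10 of the 26 passed.

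Neither translational target of hnRNP E1 named above passed the test in RNA in the fit of all 15 arrays. Dab2 read 3.74, 4.09 and 3.77 in NMuMG and 4.36, 4.41 and 4.32 in E1KD. These low values did not overlap, but the difference of 0.49 ± 0.20 did not pass (adjusted p = 0.177), though it did with only these lines in the fit (0.0296), without the M1P arrays (0.0305) and with array weights (0.0141). Fam3c read 9.77, 10.03 and 9.69 against 9.94, 10.17 and 10.28, which overlapped (0.30 ± 0.16, adjusted p = 0.324), and passed in 1 of 16 alternatives, that with array weights (0.0174). Lifr, which encodes a receptor described for ILEI, was near 3.8 in both lines, but a dimmer probe set of it rose from 2.37 to 3.34 (0.97 ± 0.20, adjusted p = 0.00994 over probe sets). Of 14 genes of the targets and their release, 1 rose and 3 fell (28.6% called). Of these 14, 2 in all were called without NMuMG array 2 or 3 or E1KD array 2 or 3. Inhba, the activin A subunit, read 7.96, 7.16 and 7.17 in NMuMG and 8.67, 8.76 and 8.27 in E1KD, a non-overlapping rise of 1.13 ± 0.23 (adjusted p = 0.00611). A dimmer Inhba probe set, at 2.91 and 3, differed by 0.09. Akt2, the kinase that phosphorylates hnRNP E1, fell by 0.75 (adjusted p = 0.0463), but another of its probe sets differed by 0.42 the other way, and the call ended without NMuMG array 1, 2 or 3 or E1KD array 2 or 3 (adjusted p of 0.0848 to 0.205). Socs3, a feedback inhibitor of cytokine receptors, fell by 1.09 (adjusted p = 0.0159), a call that ended without NMuMG array 2 or 3 or E1KD array 2 or 3 (adjusted p of 0.0501 to 0.0846). Ppp1r10, a phosphatase regulator, fell by 0.49 (adjusted p = 0.00557).

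The epithelial label was checked against 10 markers, and none of the 10 passed limma's test between the lines, though 2 had an unadjusted p under 0.05. Krt8 and Krt18, the keratin pair of simple epithelia, had means of 14.17 and 14.09 in NMuMG and 13.90 and 13.69 in E1KD. Both were lower in every E1KD array, and Krt18 (-0.40, adjusted p = 0.0715) passed in 5 of 16 alternatives, among them the fit of only these lines (0.0371), and Krt8 in 1 of 16. Cdh1, E-cadherin, read 10.96, 11.58 and 10.88 in NMuMG and 11, 11.13 and 11.38 in E1KD, and the lines overlapped. Of the 10 markers, 4 were at 8 or more in NMuMG and 4 in E1KD, and 3 were under 5 in both lines. Some of the others were low: Epcam was at 5.03 and 5.30, and Cldn3, Cldn4, Cldn7 and Esrp1 were between 2.52 and 5.15. All 10 fibroblast markers, 9 of 10 endothelial markers, 7 of 11 leukocyte markers and 5 of 6 adipocyte markers were under 5 in both lines. Cd14, which epithelial cells can also express, was the exception with a strong signal, at 10.89 and 10.22. Mammary lineage markers were low as well, with 8 of 10 basal and 7 of 9 luminal markers under 5 in both lines.

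**Figure D2:**
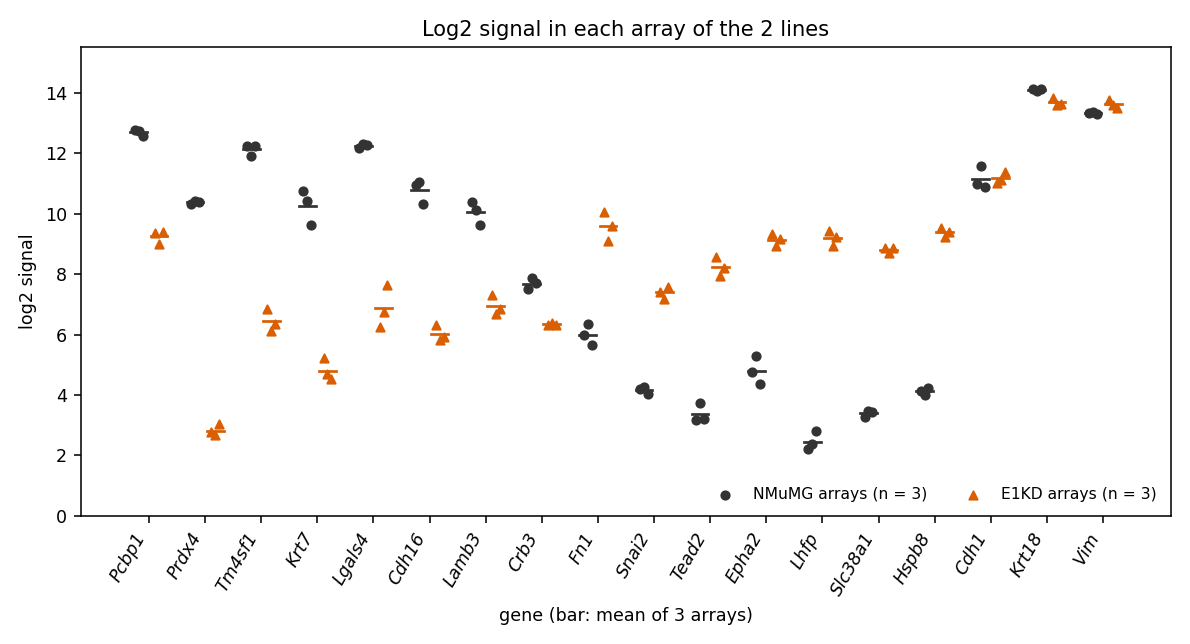
Log2 signal (vertical axis) of 18 genes in each NMuMG array (circles) and E1KD array (triangles), with the mean of 3 arrays as a bar. Pcbp1 and the 7 genes after it are lower in every E1KD array, the next 7 are higher in every E1KD array, and Cdh1 overlaps.

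Polarity of an epithelial cell is set by the Crumbs complex (Crb3) and the Par complex (Pard6b with the atypical protein kinase C encoded by Prkcz) at the apex and by the Llgl proteins below it. Of 30 apical polarity and membrane traffic genes measured, 9 fell and 1 rose (33.3% called against 9.49% of all genes), with a median of -0.24, and 9 or 10 were called whichever array was left out. Crb3 read 7.49, 7.87 and 7.70 in NMuMG and 6.32, 6.38 and 6.32 in E1KD, a fall of 1.35 ± 0.15 (adjusted p = 8.87e-05). Prkcz went from 7.32, 6.93 and 7.09 to 5.38, 5.30 and 5.46, a fall of 1.73 ± 0.22 (adjusted p = 0.0002). Both were lower in each E1KD array than in any NMuMG array, as were Pard6b (-1.28) and Llgl2 (-1.32). Other Prkcz probe sets differed by -0.57, which passed, and by -0.48, which did not. Genes for proteins that build or supply the apical membrane included larger falls. Mal2, which carries proteins to the apical surface, went from 6.46, 7.45 and 6.98 to 2.02, 2.36 and 2.14, a level near the bottom of the scale. Lgals4, a galectin of apical lipid rafts, went from 12.17, 12.30 and 12.26 to 6.26, 6.75 and 7.64 (41.1-fold, adjusted p = 1.7e-05). Vil1, the actin bundler of microvilli, fell 4.61-fold and Exph5, a Rab27 effector, fell 3.3-fold. Podxl, a sialomucin that keeps membranes apart, was the only member that rose, from 3.90, 3.88 and 3.71 to 7.08, 6.24 and 6.44 (6.77-fold, adjusted p = 4.75e-05). Another Podxl probe set, at 3.9 and 4.28, differed by 0.38 and did not pass. The list's other 20 members, among them the Par partner Prkci and the basolateral proteins Scrib and Dlg1, did not pass.

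Stretches before the start of 6 of the lower genes are shown because Snai2, whose protein binds the letters CACCTG at epithelial genes, was higher in E1KD (given further on). Each is 150 bases long, ends at the base before the annotated start, and comes from RefSeq's GRCm38.p6 promoter table, with CACCTG on either strand (CAGGTG on the other) in capitals.
Crb3 (chr17:57062051-57062200, plus strand): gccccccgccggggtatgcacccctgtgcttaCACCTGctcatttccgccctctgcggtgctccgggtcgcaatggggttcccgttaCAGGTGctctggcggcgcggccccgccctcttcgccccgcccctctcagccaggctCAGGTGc
Pard6b (chr2:168080854-168081003, plus strand): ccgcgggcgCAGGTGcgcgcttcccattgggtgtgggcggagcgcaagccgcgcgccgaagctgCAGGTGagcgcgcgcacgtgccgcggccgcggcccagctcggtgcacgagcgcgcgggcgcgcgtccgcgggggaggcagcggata
Prkcz (chr4:155361429-155361578, minus strand): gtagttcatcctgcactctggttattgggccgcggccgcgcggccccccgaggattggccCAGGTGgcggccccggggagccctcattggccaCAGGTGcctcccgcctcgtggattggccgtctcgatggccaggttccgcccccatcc
Spint2 (chr7:29281978-29282127, minus strand): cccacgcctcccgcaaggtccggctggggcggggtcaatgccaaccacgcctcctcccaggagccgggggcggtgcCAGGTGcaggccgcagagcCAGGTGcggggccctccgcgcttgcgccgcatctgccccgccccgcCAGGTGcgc
Krt7 (chr15:101412253-101412402, plus strand): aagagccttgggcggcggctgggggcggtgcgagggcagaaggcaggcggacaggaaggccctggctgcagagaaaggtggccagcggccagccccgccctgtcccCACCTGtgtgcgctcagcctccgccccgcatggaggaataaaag
Lgals4 (chr7:28833644-28833793, plus strand): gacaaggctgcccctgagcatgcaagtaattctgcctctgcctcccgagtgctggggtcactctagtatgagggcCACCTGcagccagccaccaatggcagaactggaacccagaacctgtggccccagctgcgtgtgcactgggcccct
The Crb3 and Spint2 stretches hold 3 matches each, those of Pard6b and Prkcz 2 each, and those of Krt7 and Lgals4 1 each. These genes were chosen for holding a match. In the 250 bases before any annotated start, 19.9% of the 14452 tested genes with a promoter entry held the letters, as did 15.2% of the risen genes, 20.6% of the fallen genes and 23.7% of those that fell at least 2-fold. Among the apical list's 21 members with an entry, 11 held it (52.4%), and among its 6 fallen members with an entry, 4 did. The other 15 members of the list with an entry did not fall, and 7 of them held the letters. A second set of letters, GGAATG on either strand, was searched in the same way. It was held by 13.4% of all genes with an entry, 12.1% of the risen, 14.9% of the fallen and 17.4% of those that fell at least 2-fold. For both sets of letters the share was highest among the genes that fell at least 2-fold. The second set was not shown to be a neutral background, and a reason for either pattern was not tested. A match is a description of these letters and shows no binding.

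None of 14 desmosome genes passed limma's test, with a median of -0.14, while 2 had an unadjusted p under 0.05 and 2 passed with only these lines in the fit. In the full fit the largest differences were in the plaque proteins Pkp3 (-0.85, adjusted p = 0.0724) and Pkp2 (-0.62). Of 25 tight junction genes 4 fell (16%), though only 1 or 2 when any 1 of the 6 arrays was left out. Marveld2, the tricellulin of 3-cell corners, read 5.13, 5.87 and 5.74 in NMuMG and 2.68, 2.44 and 2.75 in E1KD (7.77-fold lower, adjusted p = 1.17e-06). Ocln, occludin, fell 3.22-fold (adjusted p = 0.0113), which ended without NMuMG array 2 (0.0571) or E1KD array 1 (0.0563). Cldn2, a pore-forming claudin, was at 10.46 and 11.32 and did not pass (adjusted p = 0.0704), but did with only these lines in the fit (0.00206). Of 24 cadherin, catenin and nectin genes, 1 rose and 1 fell (8.33% called, near the 9.49% of all genes). Cdh16, a cadherin of kidney and other duct epithelia, went from 10.95, 11.04 and 10.32 to 6.33, 5.80 and 5.93, and Cdh2, N-cadherin, from 9.10, 9.28 and 9.07 to 10.61, 10.37 and 10.67. Both pairs of lines were apart, but the Cdh2 call ended without NMuMG array 1 (0.058) or 3 (0.0582) or E1KD array 1 (0.0556) or 3 (0.0611). Gap junction genes went both ways: Gjb5 fell 10.9-fold and Gjc1 rose 5.14-fold, while another Gjc1 probe set rose by 4.47 ± 0.27, from 3.25 to 7.72.

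On the basal side, 3 of 20 hemidesmosome and laminin genes fell and 1 rose (20% called). In all, 2 or 3 were called when any 1 array was left out. Lamb3, the beta chain of laminin-332, went from 10.37, 10.11 and 9.64 to 7.32, 6.69 and 6.84 (8.52-fold, adjusted p = 2.27e-05). Itgb4, the integrin that anchors cells to that laminin, went from 7.51, 8.05 and 7.08 to 5.76, 5.73 and 6.14 (3.18-fold, adjusted p = 0.00898). Each E1KD array was below every NMuMG array for both. Among 26 integrins and related receptors, 1 rose and 3 fell (15.4% called). The rise was that of Vcam1, an immunoglobulin-family adhesion receptor, at 4.49-fold. Fn1, the matrix protein fibronectin, rose 12-fold, from 5.97, 6.36 and 5.66 to 10.06, 9.11 and 9.60. Fbln2, a fibulin that binds fibronectin, went from 8.81, 8.63 and 7.76 to 10.76, 10.35 and 10.31 (4.2-fold, adjusted p = 0.000532). It was the only 1 of 29 collagen and elastic fibre genes that passed (3.45%), and 21 of the 29 were lower in E1KD, with a median of -0.14.

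Of 22 keratin and mammary lineage genes 5 fell (22.7%) and none rose, and 4 or 5 were called whichever array was left out. Krt7, a keratin of ducts, went from 10.74, 10.43 and 9.63 to 5.23, 4.68 and 4.52. Krt20 fell 5.1-fold and stayed well measured, from 10.89, 11.09 and 11.03 to 8.95, 8.30 and 8.70. Muc1, the transmembrane mucin of the luminal surface, went from 11.19, 11.26 and 10.91 to 8.86, 9.08 and 9.34 (4.09-fold, adjusted p = 0.000528). Of 15 genes listed as epithelial membrane proteases and inhibitors, 3 fell (20%) and none rose, and 12 were under 5 in both lines. Spint2, a membrane protease inhibitor, fell 2.37-fold (adjusted p = 0.00197). Serpinb5, the serpin maspin, went from 8.36, 8.10 and 8.63 to 5.20, 5.56 and 4.77 (9.11-fold). Serpinb9b, an inhibitor of granzyme-like proteases, was the largest rise among genes well measured in both lines, from 8.27, 8.34 and 7.81 to 11.63, 11.70 and 11.66 (11.5-fold, adjusted p = 0.000205).

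**Figure D3:**
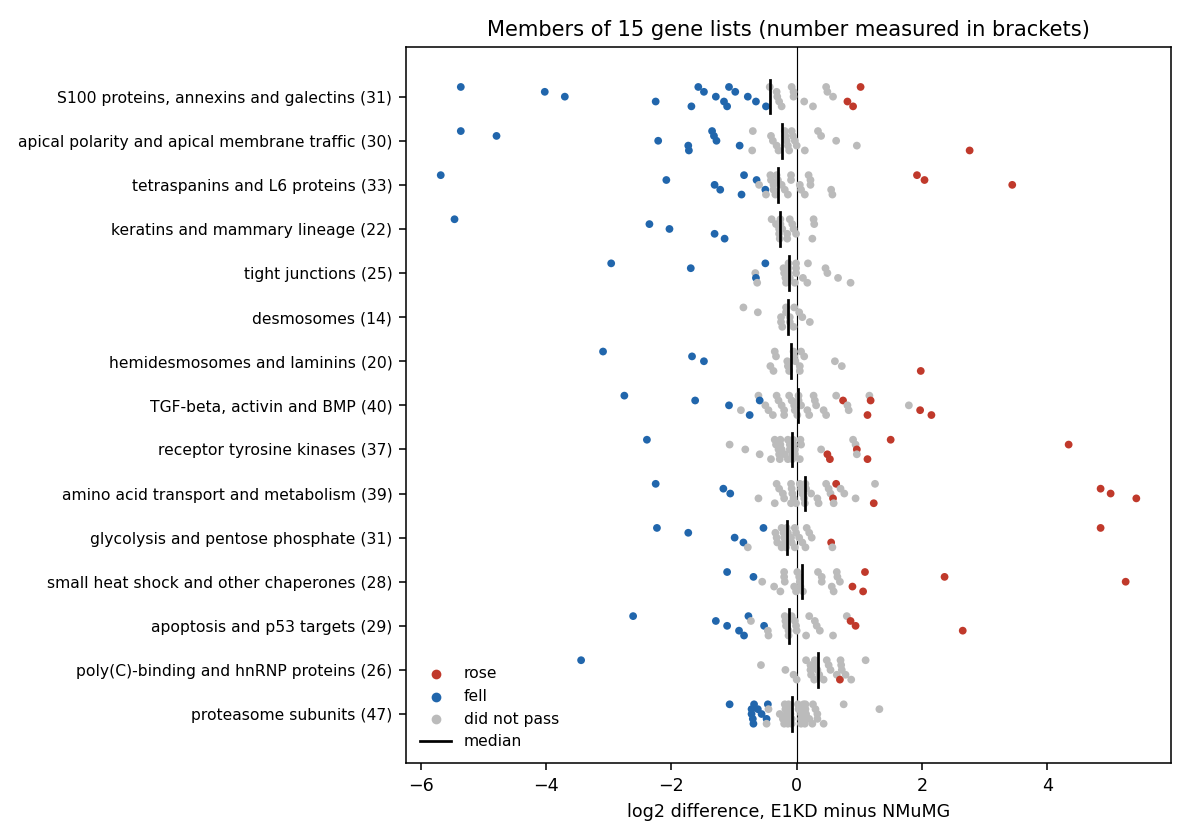
Log2 difference between E1KD and NMuMG (horizontal axis) of each measured member of 15 gene lists (rows), coloured by limma call, with the list's median as a bar. The S100, annexin and galectin list has the most calls, 18 of 31, and desmosomes have none.

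S100 proteins, annexins and galectins are small proteins that bind calcium, phospholipid or sugar and are abundant in epithelia. Of 31 measured, 15 fell and 3 rose (58.1% called), with a median of -0.43, and 15 to 17 were called when an array was left out. The alarmin pair S100a8 and S100a9 fell most among the S100 genes. S100a8 went from 9.21, 9.52 and 8.54 to 5.95, 5.05 and 5.16, and S100a9 from 7.72, 8.52 and 7.97 to 5.00, 3.54 and 3.61. For both, E1KD array 1 was the highest of its line and still below every NMuMG array. In the order of 11 S100a genes on chromosome 3, the first 5 (S100a1, S100a13, S100a14, S100a16 and S100a3) all fell, by 1.11 to 2.25, though S100a16 did not pass without E1KD array 2 (0.0593). The next 3 did not pass: S100a4, the metastasin of mesenchymal cells, was at 12.63 and 12.89, S100a5 was under 5 in both lines, and S100a6, which passed in the trended fit (0.0334) and with array weights (0.0351), was at 14.41 and 14.17. S100a8, S100a9 and S100a10, the partner of annexin A2, then fell again. Annexins were divided: Anxa9 fell by 1.08, Anxa8 by 0.98 and Anxa5 by 0.65, and the Anxa9 call ended without NMuMG array 1 (0.0528) or E1KD array 2 (0.0571). Anxa7 rose by 0.90 (adjusted p = 0.000215), Anxa10 by 1.02 and Anxa6 by 0.81. The Anxa10 call ended on leaving out any array but NMuMG array 2 (adjusted p of 0.0722 to 0.119), and that of Anxa6 on leaving out any but E1KD array 2 (0.0901 to 0.168). Lgals3, a galectin, fell by 0.49 from 14.03 to 13.54, and Lgals2 by 1.16.

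**Figure D4:**
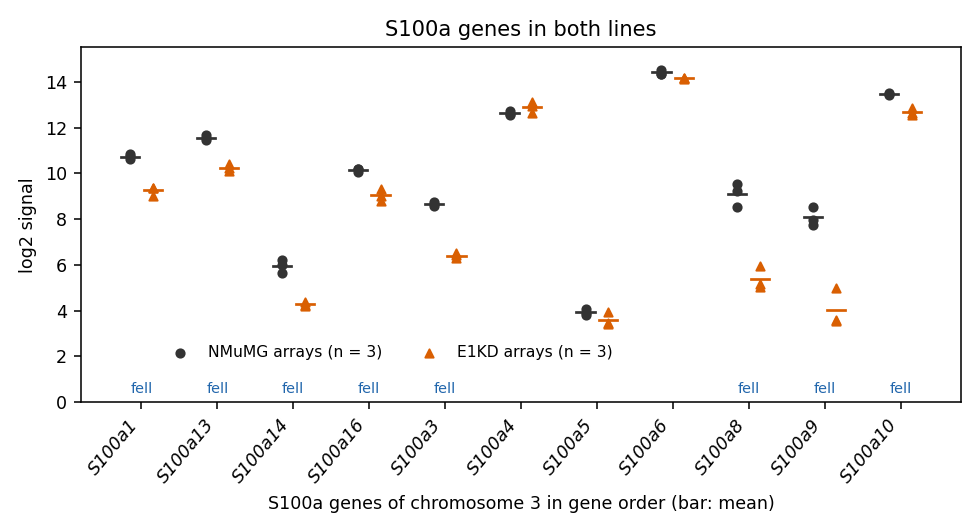
Log2 signal (vertical axis) of 11 S100a genes in their order on chromosome 3 (horizontal axis), with 3 NMuMG arrays (circles), 3 E1KD arrays (triangles) and the mean as a bar. The 8 genes marked as fallen lie on both sides of S100a4, S100a5 and S100a6, whose lines lie close together.

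Tetraspanins and their relatives organise receptors in the membrane. Of 33 in this group, 3 rose and 8 fell (33.3% called), 11 in all and 7 without NMuMG array 2. Tm4sf1 read 12.23, 11.91 and 12.24 in NMuMG and 6.85, 6.12 and 6.35 in E1KD, and both of its other probe sets were lower too. Tspan15, a partner of the protease ADAM10, went from 9.69, 9.68 and 9.32 to 7.28, 7.53 and 7.64 (4.22-fold). Pmp22, a tetraspan protein of myelin and epithelia, rose 10.8-fold from 3.57, 3.98 and 3.57 to 7.18, 6.75 and 7.49. Emp2, its relative, rose 3.79-fold and Tspan6 4.13-fold. The largest rise of all genes was also a tetraspan protein gene: Lhfp read 2.20, 2.37 and 2.81 in NMuMG and 9.44, 8.92 and 9.23 in E1KD (log2 difference 6.74 ± 0.25, adjusted p = 1.7e-09). The fold was 107, with NMuMG values near the bottom of the scale.

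Of 23 transcription factors and other genes of the mesenchymal list, 3 rose and 1 fell (17.4% called). Without NMuMG array 3, 2 were called. Snai2, the repressor Slug, read 4.19, 4.27 and 4.03 in NMuMG and 7.42, 7.18 and 7.59 in E1KD (9.38-fold, adjusted p = 0.000455). Zeb2 went from 5.08, 3.68 and 4.45 to 5.93, 6.42 and 5.78, which did not pass (adjusted p = 0.167), and Zeb1 at 7.47 and 8.24 did not pass either. With only these lines in the fit both passed (0.0115 and 0.0309), as did 7 of the 23. Snai1 and Twist1 were under 5 in both lines. Vim, vimentin, was already at 13.33 in NMuMG and at 13.62 in E1KD. Of 22 epithelial factors 2 rose and 1 fell (13.6% called), 3 in all and 1 without E1KD array 2. Elf3, an Ets factor of epithelia, fell (adjusted p = 0.0106), and its call ended without that array (0.0585). Foxa1, a pioneer factor of luminal cells, rose from 3.47, 3.41 and 2.81 to 6.30, 5.57 and 5.58 (6-fold, adjusted p = 0.00049). Ehf, an Ets factor, was lower by 1.54 and did not pass (adjusted p = 0.0683), but did with only these lines in the fit (0.0196).

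Tead2, a DNA-binding partner of Yap, went from 3.17, 3.75 and 3.22 to 8.55, 7.95 and 8.19. Of the other Tead genes, Tead1 rose by 1.59 (adjusted p = 0.0315) and Tead4 fell by 1.17 (adjusted p = 0.0161). The Tead1 call ended without NMuMG array 1 or 3 or any E1KD array (adjusted p of 0.0743 to 0.135), and a further Tead1 probe set at 4.78 and 4.77 differed by -0.02. The Tead4 call ended without NMuMG array 1 (0.0737) or E1KD array 2 (0.0838). The other 21 of 24 genes of the Tead and Yap list did not pass (12.5% called). Of 89 homeobox genes 2 rose and 2 fell (4.49% called, under the 9.49% of all genes), and 68 were under 5 in both lines. Hoxa10 rose most of them, from 2.46, 2.67 and 2.94 to 5.90, 5.73 and 6.28 (9.69-fold, adjusted p = 1.78e-07). Another Hoxa10 probe set, at 2.44 and 2.7, differed by 0.26. Of 36 chromatin regulators 1 rose and 1 fell (5.56% called). Smarca2, a catalytic subunit of the SWI/SNF remodeller, rose 4.58-fold, while its other probe set, at 3.98 and 4.34, differed by 0.36.

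Receptors and their ligands changed in both directions. Of 37 receptor tyrosine kinases, 6 rose and 1 fell (18.9% called), but 3 or 4 were called whichever array was left out. Epha2, an ephrin receptor, went from 4.75, 5.29 and 4.36 to 9.33, 8.92 and 9.17 (20.2-fold, adjusted p = 3.16e-07). Mst1r, the Ron receptor of epithelia, went from 6.69, 6.97 and 6.66 to 4.36, 4.41 and 4.36 (5.25-fold, adjusted p = 0.00011). Ddr2, a collagen receptor, rose by 1.13, and its other probe set rose by 3.60 ± 0.49, from 3.34 to 6.94 (adjusted p = 0.000469 over probe sets). F2r, the thrombin receptor, fell 20.6-fold from 10.72, 10.42 and 10.47 to 6.20, 6.10 and 6.22. Ackr3, a chemokine scavenger receptor, went from 7.61, 7.37 and 7.77 to 2.77, 2.75 and 2.75.

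Of 40 TGF-beta, activin and BMP genes, 5 rose and 5 fell (25% called), 10 in all and 6 without E1KD array 2. Ligands differed in direction: Bmp2 rose from 2.43, 3.02 and 3.06 to 4.51, 4.93 and 5.52, and Bmp4 fell from 7.31, 7.26 and 7.07 to 5.29, 5.59 and 5.89. Neither overlapped between the lines, and the differences were 2.15 ± 0.38 and -1.62 ± 0.20. Of the receptors, the co-receptor Tgfbr3, betaglycan, fell 6.74-fold from 5.81, 6.47 and 6.15 to 3.31, 3.34 and 3.52. Another Tgfbr3 probe set, at 2.79 and 2.69, differed by -0.1. Of the transducers, Smad1 rose by 0.74, which ended on leaving out any array but NMuMG array 2 (adjusted p of 0.0525 to 0.0792). Smad2 fell by 0.59, which ended without NMuMG array 2 or 3 or E1KD array 1 or 2 (0.0679 to 0.0793), and its probe set of largest variance differed by 0.36 the other way. Of the targets, Id3, an inhibitor of basic helix-loop-helix factors, rose 3.91-fold, and the feedback inhibitor Smad7 fell by 1.08 (adjusted p = 0.0126), which ended without NMuMG array 2 (0.0581) or E1KD array 2 (0.07). Ltbp1, which stores latent TGF-beta in the matrix, rose by 1.18. Other Ltbp1 probe sets, under 5 in both lines, differed by 0.29 and 0.39 and did not pass.

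Of 28 genes that answer to MAP kinases, 5 rose and 2 fell (25% called). The partners of AP-1 parted: Jun went from 5.74, 6.03 and 6.14 to 7.39, 6.69 and 7.53, and Fos from 5.93, 6.13 and 6.15 to 4.14, 4.04 and 4.32. Both differences passed (1.23 ± 0.23 and -1.90 ± 0.22). The phosphatases Dusp2 and Dusp4 rose by 1.24 and 1.02. In the cell cycle list 4 of 35 passed (11.4%, near the share of all genes), 2 without NMuMG array 3 or E1KD array 1. Ccnd1, cyclin D1, rose by 0.61 from an already high 12.04. Ccnd2, cyclin D2, rose by 1.68 (adjusted p = 0.0107), which ended without NMuMG array 2 (0.0508).

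In metabolism, the largest rises were in amino acid genes. Of 39 amino acid transport and enzyme genes, 6 rose and 3 fell (23.1% called). Slc38a1, a glutamine transporter, went from 3.27, 3.46 and 3.44 to 8.87, 8.69 and 8.86. Bcat1, the cytosolic branched-chain aminotransferase, went from 2.40, 2.42 and 2.51 to 7.94, 6.84 and 7.58, and Gatm, the first enzyme of creatine synthesis, from 2.74, 2.53 and 2.42 to 7.32, 7.39 and 7.53. In all 3 genes the lines were far apart, with NMuMG near the bottom of the scale. Slc7a5, which imports large neutral amino acids, rose 2.34-fold at a high signal (adjusted p = 0.00316). Prodh, which starts proline breakdown, fell 4.77-fold, and the mitochondrial aspartate-glutamate carrier Slc25a13 fell 7.59-fold from 5.82, 5.76 and 6.14 to 3.15, 2.90 and 2.90.

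Of 31 glycolysis and pentose phosphate genes, 2 rose and 5 fell (22.6% called). The 7 calls were 4 without NMuMG array 1 and 3 without E1KD array 2. Pfkp, the platelet type of phosphofructokinase, went from 4.12, 3.20 and 4.24 to 8.62, 8.59 and 8.89 (28.8-fold), while Pfkl, the liver type, fell by 0.99 (adjusted p = 0.0133), a call that ended without NMuMG array 1 (0.0555) or E1KD array 2 (0.0754). Other Pfkp probe sets, at 4.55 and 4.86 and at 3.45 and 3.83, differed by 0.31 and 0.38 and did not pass. Aldoc, an aldolase, fell 4.69-fold from 8.10, 7.90 and 8.09 to 6.03, 5.45 and 5.91. Eno3, an enolase, fell by 1.73.

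Among redox enzymes, Prdx4, the peroxiredoxin of the endoplasmic reticulum, had the largest fall of all genes, from 10.32, 10.42 and 10.39 to 2.76, 2.69 and 3.03. The 3 other Prdx4 probe sets were lower by 4.22, 1.04 and 1.36. Gpx4, the lipid hydroperoxide reductase, fell by 0.62 (adjusted p = 0.00772). Gsta3, a glutathione transferase, rose from 4.61, 4.58 and 5.00 to 6.80, 7.01 and 8.18 (6.08-fold), and Gstm5 fell 2.27-fold. For heparan sulfate, Hs6st2, a 6-O-sulfotransferase, went from 3.19, 2.45 and 2.65 to 7.94, 7.71 and 7.45, and its core protein carrier Gpc1, a glypican, from 3.88, 3.61 and 3.94 to 6.54, 6.23 and 6.16. Other Hs6st2 probe sets differed by 1.68, 0.09 and 0, and only the first of these passed. Sdc1, the syndecan of epithelia, fell by 1.02 (adjusted p = 0.00276).

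Of 28 chaperones, 5 rose and 2 fell (25% called), but 3 or 4 were called whichever array was left out. Hspb8, a small heat shock protein, went from 4.15, 4 and 4.24 to 9.53, 9.22 and 9.38, and Hspa1b, the inducible Hsp70, from 4.06, 4.63 and 3.74 to 6.65, 6.37 and 6.51. Both were apart in all arrays. Of 24 genes of the unfolded protein response only Xbp1, one of its transcription factors, passed, and it fell by 0.80 (adjusted p = 0.00324). Of 47 proteasome subunits 10 fell (21.3%), by 0.46 to 1.07, and none rose. Called or not, 25 of the 47 were lower and 22 higher, with a median of -0.08 against -0.069 for all genes. The proteasome count was 6 without NMuMG array 1, 3 without NMuMG array 3, 1 without E1KD array 2 and 5 without E1KD array 3.

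Of 29 apoptosis and p53 genes, 3 rose and 7 fell (34.5% called). The 10 calls were 6 without E1KD array 2 and 5 without E1KD array 3. Bmf, a BH3-only killer protein linked to loss of matrix contact, went from 8.26, 7.85 and 8.22 to 4.84, 5.51 and 6.16 (6.09-fold, adjusted p = 0.00795). Other Bmf probe sets, under 5 in both lines, differed by -0.28 and -0.25 and did not pass. Bcl2l11, Bim, fell by 1.11 (adjusted p = 0.012), which ended without NMuMG array 2 (0.0617) or E1KD array 3 (0.0501). Gadd45b, a stress sensor, fell by 1.29. Eda2r, a death receptor and p53 target, rose from 3.18, 3.29 and 3.02 to 5.62, 6.04 and 5.78. Gsdmd, the pore protein of pyroptosis, fell 3.84-fold, from 11.64, 11.59 and 11.62 to 9.55, 9.62 and 9.86.

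Of 27 genes in the interleukin, alarmin and NF-kB list, 5 fell and 1 rose (22.2% called), with a median of 0.06. In all, 6 were called whichever array was left out. Il33, an alarmin of barrier cells, went from 10.54, 9.99 and 10.77 to 7.95, 8.87 and 8.59 (3.9-fold, adjusted p = 0.00313). Il18 fell 2.99-fold and Birc3, an NF-kB target and inhibitor of apoptosis, 2.89-fold. Another Birc3 probe set, at 3.41 and 3.48, differed by 0.07. Il1rn, the interleukin-1 receptor antagonist, rose 3.21-fold, while other probe sets of it differed by 0 and 0.52 and did not pass. Of 27 nucleic acid sensing genes 5 fell (18.5%) and none rose, 3 without NMuMG array 2, E1KD array 1 or E1KD array 2. Among these, Ikbke, a kinase upstream of interferon genes, fell 2.94-fold and Isg20, an RNA exonuclease, 2.15-fold. Cfb, complement factor B, went from 9.53, 9.59 and 9.30 to 5.31, 5.21 and 5.76 (16.5-fold, adjusted p = 1.98e-05).

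Vesicle and lysosome genes also divided. Rab32, a GTPase of lysosome-related organelles, went from 2.94, 3.72 and 3.49 to 8.5, 8.69 and 8.90 and was the only 1 of 59 Rab genes that rose. Of the 7 that fell, Rab17, which serves apical transport in epithelia, was lowest (3.8-fold), from 7.89, 8.23 and 7.44 to 5.71, 5.83 and 6.25. Another Rab17 probe set, at 5.08 and 4.44, differed by -0.64 and did not pass. The 8 Rab calls (13.6% of the list) were 4 without NMuMG array 2 and 5 without E1KD array 1 or 2. Of 33 lysosomal genes, 3 rose and 5 fell (24.2% called), 8 in all and 5 without NMuMG array 2 or E1KD array 1. Hexa, a beta-hexosaminidase subunit, went from 4.10, 4.74 and 4.65 to 8.98, 8.97 and 9.51, and Ctsh, cathepsin H, rose 7.88-fold, while Ctse, cathepsin E, fell by 1.44. Igf2r, which sends hydrolases to lysosomes, rose from 5.43, 5.88 and 5.25 to 8.72, 8.75 and 9 (9.89-fold), and its second probe set rose by 3.12.

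Ion transport genes of epithelia that fell included the potassium channels Kcnk5, from 6.90, 7.41 and 6.92 to 3.59, 3.98 and 4.06, and Kcnk1 (4.02-fold). They were the only 2 of 80 potassium channel genes that passed (2.5%), and 66 of the 80 were under 5 in both lines. The carbonic anhydrases Car12 and Car2 fell 4.49-fold and by 1.82. Aqp5, a water channel, rose 4.15-fold and Abcc2, an apical export pump, 4.96-fold. In the cytoskeleton, Flnc, filamin C, rose 5.82-fold, and Capg, an actin capping protein, fell by 1.72. Ndn, an imprinted gene, fell by 1.96, and 4 of its other probe sets fell by 4.02, 4.95, 4.98 and 5.20 to between 2.11 and 2.66.

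The remaining large changes belong to none of these lists. Eva1b, a membrane protein gene, went from 9.78, 9.64 and 9.68 to 3.77, 3.63 and 3.66, the second largest fall. Cmtm7, a MARVEL protein, fell 25.7-fold, Clrn3, a clarin, 24.8-fold, Sgpp2, a sphingosine phosphate phosphatase, 19.9-fold, and Ddc, the aromatic amino acid decarboxylase, 19.8-fold. Another Ddc probe set, at 2.79 and 2.72, differed by -0.08. Of the rises, Dynap read 3.76, 3.30 and 3.11 against 9.04, 8.24 and 7.78, Atp11a, a phospholipid flippase, rose 25.5-fold, Zfp518b, a zinc finger gene, 22.8-fold, Pde8a, a cyclic AMP phosphodiesterase, 22.6-fold, and Ptprg, a receptor tyrosine phosphatase, 22.1-fold. Other probe sets of Atp11a (at 4.88 and 4.98) and Zfp518b (at 3.22 and 3.26) differed by 0.1 and 0.04 and did not pass. Among 3988 genes at 8 or more in both lines, 117 rose (2.93%) and 386 fell (9.68%). Here the largest falls after Pcbp1 were H1f2, a linker histone, from 11.30, 11.26 and 11.46 to 7.79, 8.23 and 8.45, and Krt20. Chchd10, a mitochondrial protein, rose 3.93-fold and Rhox5, a homeobox gene, 3.3-fold.

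Falls were unevenly spread over the chromosomes. On chromosome 19, 14.9% of 609 tested genes fell, on chromosome 3 12.2% of 913 and on chromosome 17 8.75% of 834, against 6.49% of all and 2.71% of 702 on chromosome 13. Among the genes at 8 or more in both lines, 78.1% of 187 on chromosome 19 were lower in E1KD, 69.3% of 231 on chromosome 3 and 69.7% of 185 on chromosome 17, while 26.8% of 138 on chromosome 13 and 30.9% of 94 on chromosome 18 were. Set against the NMuMG mean, the medians of the E1KD arrays were -0.24, -0.39 and -0.31 on chromosome 19, -0.25, -0.24 and -0.22 on chromosome 3, and 0.25, 0.28 and 0.30 on chromosome 18. The 3 NMuMG arrays lay between -0.05 and 0.06 on these chromosomes, so the lines did not overlap. Over all 3985 such genes the E1KD arrays were at 0.01, -0.09 and 0.01, so array 2 was also lower as a whole. Under quantile normalization the medians of the difference on chromosomes 19, 3 and 18 were -0.28, -0.24 and 0.30. Such medians can differ between arrays of 1 line: on chromosome X the 3 M1P arrays were at -1.1, -0.42 and -0.14. The spread over chromosomes is a description, no test was made of it, and a cause was not tested. Runs of at least 4 neighbouring tested genes with a fall in each were found 5 times, and no such run of rises was found. As 6.49% of genes fell and 3% rose, runs of rises are rarer by number alone, and the contrast was not tested. A run of 5 on chromosome 17 was Stk19, Dxo, Skiv2l, Nelfe and Cfb. It was broken on leaving out any array, since the Dxo call then ended (adjusted p of 0.0557 to 0.117), as did that of Nelfe without any but E1KD array 1 and of Skiv2l without NMuMG array 2 (0.0501). A run of 5 on chromosome 3 held the S100 genes named above.

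**Figure D5:**
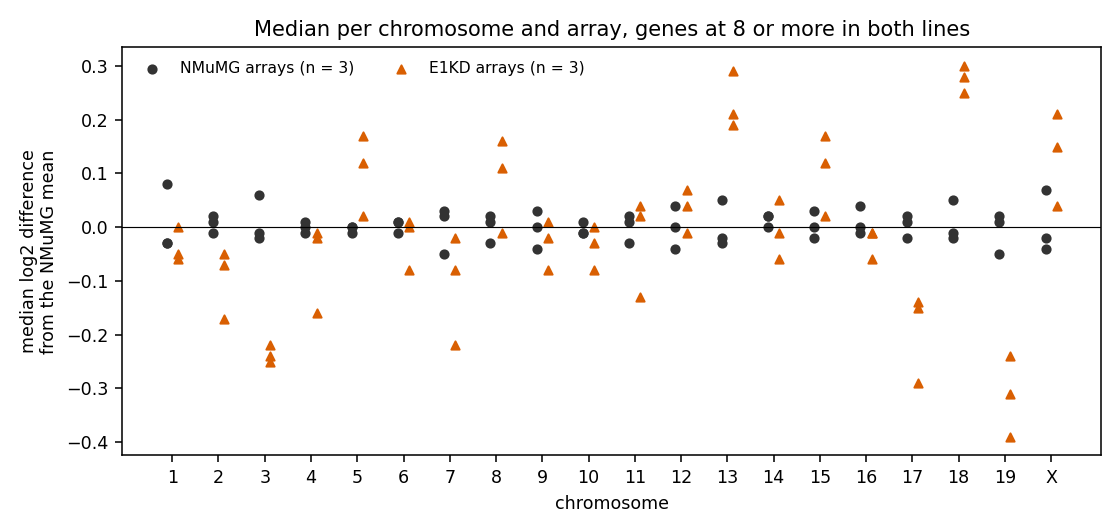
Median log2 difference from the NMuMG mean (vertical axis) of the genes at 8 or more in both lines, per chromosome (horizontal axis), in each NMuMG array (circles) and E1KD array (triangles). All 3 E1KD arrays lie below the NMuMG arrays on chromosomes 2, 3, 17 and 19 and above them on chromosomes 5, 13 and 18, with the smallest gaps on chromosomes 2 and 5.

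Some of the levels that set E1KD apart were not found in the lines later recovered from mice. Bcat1, at a mean of 7.45 in E1KD, was at 3.62 in M1P, 2.49 in L1P and 2.31 in L2P, and Gatm, at 7.41 in E1KD, was at 2.46, 2.30 and 2.44. Tm4sf1, at 6.44 in E1KD, was at 13.35, 11.18 and 13.20. Zfp764, a zinc finger gene that fell from 7.55 to 5.30, was at 7.51, 7.18 and 7.42. In contrast Prdx4 was at 3.00, 2.84 and 2.60 in these lines, and Tead2 at 8.46, 7.48 and 7.44, near their E1KD means of 2.83 and 8.23. The M1P means include the arrays that stood apart. These genes were picked after their values were seen, and the differences between E1KD and the recovered lines were not tested here.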

How the data were processed

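Affymetrix mouse arrays of total RNA were used as deposited: the authors' values are log2 signals per probe set, made with RMA, MAS5 and the Affymetrix Expression Console per the submitters' processing notes, with versions and roles not given in the sources used here. No detection calls were used, so folds against signals near the bottom of the scale, which starts at 1.53, may understate a change. Arrays have no read depth, and 3 arrays per line limit the precision.

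Of 45101 probe sets, 34945 carried 1 gene symbol in the platform annotation, 34741 of them checked by Entrez ID in RefSeq's GRCm38.p6 table. Where a gene had several, the probe set brightest on average across the 15 arrays stood for it. Among 952 called genes with more than 1 probe set, all others lay on the same side for 697. limma 3.58.1 in R 4.3.3 fitted 1 coefficient per line to all 15 arrays, with two-sided moderated tests and Benjamini-Hochberg adjustment over 18193 genes, and the code was tested on simulated data. Differences are given with the SE.

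Genes were named by rule: fixed genes, the 15 largest rises and falls, the 10 largest with both lines at 8 or more, up to 4 called genes per direction and list, and further list members. The largest were taken only from called genes whose lines did not overlap. For them a lack of overlap is part of the choice and adds no evidence. The genes, lists and tests were chosen with earlier results of these data known, and lists carry counts and medians but no test. Alternatives were the arrays fitted, the scaling, the choice of probe set, a signal filter, the moderation, array weights, a replicate block and leaving out each array. Same-numbered arrays of the lines did not deviate together (correlations of -0.0567, -0.496 and -0.188), so the numbers do not pair them.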

Additional observations from a re-analysis of the deposited data

Results flagged for a closer look

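Outside the comparison of genes, 10092 probe sets carried no single gene symbol, and in a separate limma fit 60 of them rose and 117 fell in E1KD against NMuMG. They are a signal in data that the comparison of genes did not use.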

How the results depend on the processing

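The total of 1727 called genes was within 1.5 times of itself under quantile normalization, median centring, both other probe set choices, the signal filter, the trended fit and the replicate block. It was 3439 with only the E1KD and NMuMG arrays, 3463 without the M1P arrays, and 4771 with array weights, whose estimation stopped before it converged. Leaving out 1 array gave 999 to 1245 genes, and 670 to 782 that differed at least 2-fold. The replicate block gave 2183 genes, and as same-numbered arrays did not deviate together it is only an alternative. Of 319 genes followed through the 16 alternatives, 292 were called, and 179 of these stayed called in each alternative run. With the probe set of largest variance, 7 called genes changed direction: Akt2 (0.42), Cd47 (0.25), Eif1ad (0.39), Smad2 (0.36), Tpm1 (-0.12), Txnrd1 (-0.07) and Wnt7a (1.33), the last also with the mean of probe sets (0.26). Of the uncalled, Epcam changed to -0.37 and -0.05 in the same settings, and when an array was left out Cdh1 was at -0.06, -0.08 and -0.10 in 3 cases and Lifr ranged from -0.01 to 0.23.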
